A study of Mus musculus with 16 samples.

Results

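The 9 genes described here are the Janus kinases Jak1, Jak2, Jak3 and Tyk2 and the signal transducers Stat3, Stat4, Stat5a, Stat5b and Stat6, taken by symbol from a table of 45777 mouse genes. All 9 were listed, and all 9 passed the filter on low counts that left 19915 genes to be tested. They were measured by RNA sequencing of polyA RNA from ear skin of wild-type C57BL/6 mice whose ears carried MC903-induced inflammation. MC903 (calcipotriol) is an analogue of vitamin D used in mice to raise a dermatitis like human atopic eczema.

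The anti-OSM group held 3 libraries from mice given an antibody against oncostatin M, a cytokine of the interleukin-6 family, at 20 µg per mouse into the skin every other day. The anti-Ly6G group held 3 libraries from mice given an antibody against Ly6G, a surface protein of mouse neutrophils, at 200 µg per mouse into the peritoneum 2 days before and 1 and 4 days after MC903. Both groups had 20 µL of 50 µM MC903 in ethanol on both ears daily for 10 days, and their protocol names no isotype antibody and no ovalbumin. The series has 16 libraries in all; the 5 control and 5 MC903 libraries without antibody were not analysed here, so every difference below lies between the antibodies, and no level can be called higher or lower than in MC903 skin alone. Antibody, route and schedule differed together and cannot be told apart. The sources used here name neither age nor sex. They do not say that each replicate was another mouse, so a p-value reflects only how far these libraries scatter, which may be technical.

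A cytokine brings the chains of its receptor together, and JAK kinases bound to those chains phosphorylate each other and the receptor tails. STAT proteins dock there, are phosphorylated, pair and enter the nucleus, where they bind DNA; the SOCS proteins and CISH, made in response, damp the signal. In skin, oncostatin M and interleukin-6 act mainly through JAK1, JAK2, TYK2 and STAT3, interleukin-4 and interleukin-13 through JAK1, JAK3, TYK2 and STAT6, and TSLP through JAK1, JAK2 and STAT5. Signalling is set by phosphorylation, which RNA levels do not measure.

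The anti-OSM libraries held 52163179 to 59063578 counts and the anti-Ly6G libraries 59381146 to 64122588, so that 3 counts, the limit a count of 0 allows, amount to 0.0468 to 0.0575 CPM (counts scaled to the library total). In the edgeR quasi-likelihood fit of all genes, 1157 genes were higher with anti-OSM and 1249 lower at an adjusted p under 0.05. The libraries did not spread evenly: on the first principal component, which held 43.6% of the variance, anti-OSM libraries lay at -34.7 to -26.6 and anti-Ly6G libraries at 38.6, 39.3 and, for replicate 3, 14.9. Without anti-Ly6G replicate 3 the counts were 1545 higher and 1447 lower; without any 1 of the other 5 libraries they were 240 to 580 higher and 420 to 739 lower. Keratins of the epidermis marked the tissue as labelled, with Krt10, a keratin of the upper epidermal layers, at a mean of 8896 TPM (transcripts scaled for length and library total) with anti-OSM and 8792 TPM with anti-Ly6G. Osm itself, the target of one antibody, had 11.7 ± 4.78 TPM with anti-OSM and 12.0 ± 2.38 TPM with anti-Ly6G (SD, n = 3 each). Ly6g, the target of the other, had 3, 0 and 0 counts with anti-OSM and 3 in each library with anti-Ly6G, too few for a comparison; an antibody to a protein need not lower its own RNA, so neither value checks the labels.

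The RNA of the JAK and STAT genes differed little between the antibodies. Of the 9, Tyk2 was the only one to pass the test, 0.22 higher on the log2 scale with anti-OSM, and none was called lower. Called higher were 5.81% and called lower 6.27% of all tested genes, so 1 call among 9 genes is near the background. At an unadjusted p under 0.05 edgeR gave 1 member higher and 1 lower, DESeq2 called 1 higher and 1 lower after adjustment, and limma-voom called 0 and 0. The median log2 fold change of the 9 was 0.14, against 0.01 over all tested genes. For 8 of the 9, all but Stat4, the 95% interval of the fold change lay within 1.5-fold in both directions, as it did for 55.9% of all tested genes. The groups did not overlap in CPM for 4 members, with Jak1, Tyk2 and Stat5a above and Stat3 below in the anti-OSM libraries; 35.0% of all tested genes had such a gap in either direction.

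**Figure D1:**
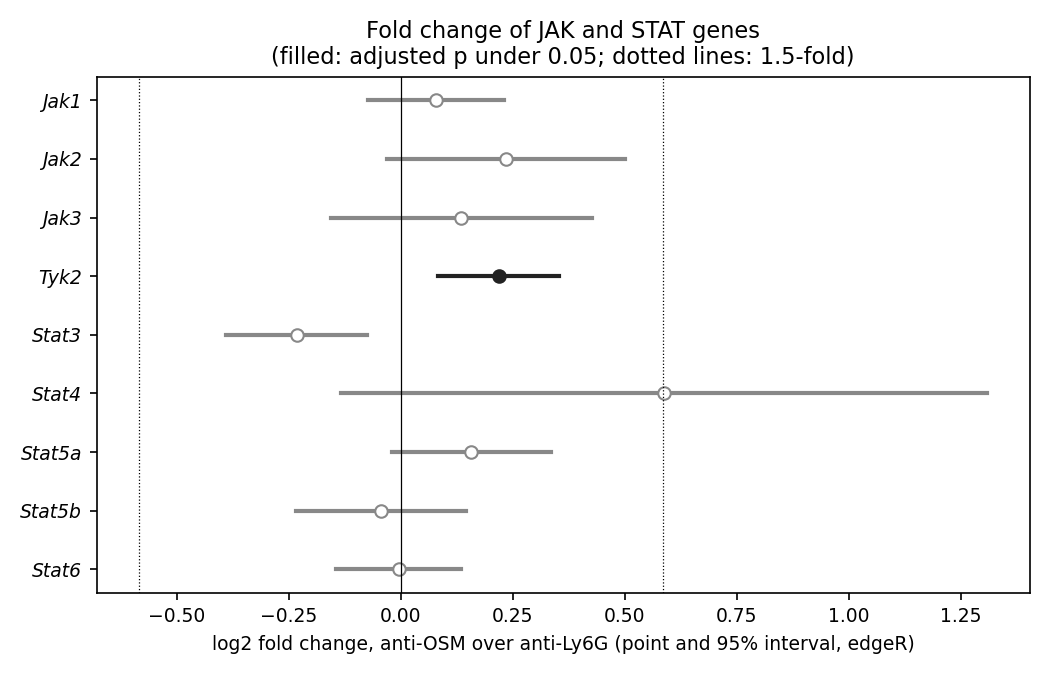
Log2 fold change of anti-OSM over anti-Ly6G with its 95% interval from edgeR, for the 9 JAK and STAT genes; filled points have an adjusted p under 0.05 and dotted lines mark 1.5-fold. Tyk2 at 0.22 is the only filled point, Stat3 lies lowest of the 9 at -0.23, and Stat4 has the widest interval of the 9, -0.13 to 1.31.

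Tyk2 (gene ID 54721, chr9:21104068-21131393 of GRCm38, minus strand) encodes the kinase bound to interferon, interleukin-12 and interleukin-10 family receptors. It had 64.7, 60.8 and 63.1 CPM in the anti-OSM libraries, against 53.9, 53.2 and 55.1 CPM in the anti-Ly6G libraries. Every anti-OSM library lay above every anti-Ly6G library, and both groups were tight. The difference was 16.3%, a log2 fold change of 0.22 with a standard error of 0.06 and a 95% interval of 0.08 to 0.35 (edgeR adjusted p = 0.0471). The value barely moved when any 1 library was left out, 0.20 to 0.24, but the call was lost each time (edgeR adjusted p = 0.0635 to 0.158). With all 6 libraries it held in 4 of 11 other settings, DESeq2 among them, and was lost under RLE or upper quartile scaling, with no filter, in limma-voom, in limma on TPM and with a replicate block (adjusted p = 0.0289 to 0.172 over the 11). In TPM the means were 27.9 ± 1.19 with anti-OSM and 24.7 ± 0.838 with anti-Ly6G (SD, n = 3 each). In GENCODE M21, 24326 bases of Tyk2 lie opposite the antisense gene 1700084C06Rik, and whether counting used strand is not stated in the labels or headers.

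Jak1 (gene ID 16451, chr4:101151974-101265282) encodes the kinase shared by gp130, common gamma chain and interferon receptors, and was the most abundant of the JAK genes. It had 116.1, 113.8 and 116.6 TPM with anti-OSM, against 102.2, 119.2 and 111.6 TPM with anti-Ly6G, and the groups overlapped on this scale. In CPM the anti-OSM libraries, at 286 to 290, lay just above the anti-Ly6G libraries, at 256 to 284. Its log2 fold change was 0.08 with a standard error of 0.07 and a 95% interval of -0.07 to 0.23 (edgeR adjusted p = 0.482).

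Jak2 (gene ID 16452, chr19:29251803-29313095) encodes the kinase of the common beta chain, interferon-gamma, erythropoietin and TSLP receptors. It had 86.8, 63.7 and 71.4 TPM with anti-OSM, against 55.9, 58.9 and 67.4 TPM with anti-Ly6G. The groups overlapped through anti-OSM replicate 2 and anti-Ly6G replicate 3, and anti-OSM replicate 1 stood highest. Its log2 fold change of 0.23 was as large as that of Tyk2, but with a standard error of 0.12 it did not pass (edgeR adjusted p = 0.222), and leaving out any 1 library gave 0.13 to 0.33.

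Jak3 (gene ID 16453, chr8:71676383-71690577) encodes the kinase bound to the common gamma chain, found mainly in blood cells. Its level was the lowest of the JAK genes, 12.1, 10.0 and 11.4 TPM with anti-OSM and 9.83, 9.03 and 12.3 TPM with anti-Ly6G. Anti-Ly6G replicate 3 lay above all 3 anti-OSM libraries in TPM. Its log2 fold change was 0.14 with a standard error of 0.13 (edgeR adjusted p = 0.527), between 0.03 and 0.26 with any 1 library left out.

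Stat3 (gene ID 20848, chr11:100886806-100939594, minus strand) encodes the factor downstream of gp130 receptors such as that of oncostatin M, and had the highest TPM of the 9 genes. It had 119.6, 128.9 and 122.6 TPM in the anti-OSM libraries, against 144.1, 145.0 and 154.3 TPM in the anti-Ly6G libraries. All 3 anti-OSM libraries lay below all 3 anti-Ly6G libraries, on the TPM scale and in CPM. The log2 fold change was -0.23 with a standard error of 0.07 and a 95% interval of -0.39 to -0.07, and it missed the threshold (edgeR adjusted p = 0.0643). It passed in DESeq2 (adjusted p = 0.0174) and in limma on log2(TPM + 1) (adjusted p = 0.0461) and on log2(TPM + 0.1) (adjusted p = 0.0473). Leaving out any 1 library gave -0.27 to -0.20 (edgeR adjusted p = 0.0642 to 0.200), so the sign held in all 6 fits while none reached the threshold.

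Stat4 (gene ID 20849, chr1:51987106-52107189), the factor of interleukin-12 receptors in T and NK cells, had the lowest level of the 9, 1.73, 1.57 and 2.42 TPM with anti-OSM and 0.963, 0.944 and 1.95 TPM with anti-Ly6G. Anti-Ly6G replicate 3 lay among the anti-OSM libraries, apart from the other 2 of its group. The log2 fold change was 0.59 with a standard error of 0.31 and a 95% interval of -0.13 to 1.31 (edgeR adjusted p = 0.260). Without anti-Ly6G replicate 3 it was 1.02 and passed (edgeR adjusted p = 0.0269), so whether Stat4 passed depended on that library.

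Stat5a (gene ID 20850, chr11:100859351-100885169) and Stat5b (gene ID 20851, chr11:100780731-100859004, minus strand) encode near-identical factors of cytokine and hormone receptors. They lie 346 bases apart on chromosome 11, and Stat3 follows 1636 bases beyond Stat5a. Stat5a had 24.8, 25.8 and 22.9 TPM with anti-OSM and 22.6, 21.0 and 23.1 TPM with anti-Ly6G, overlapping through 1 library of each group (log2 fold change 0.16, standard error 0.08, edgeR adjusted p = 0.223). Stat5b had 29.4, 26.1 and 27.3 TPM with anti-OSM and 24.7, 30.7 and 31.3 TPM with anti-Ly6G, with the anti-OSM libraries inside the anti-Ly6G range (log2 fold change -0.05, standard error 0.08, edgeR adjusted p = 0.760). The pair shares sequence: 9.27% of the 75-base words of Stat5a transcripts occur in Stat5b transcripts and 7.08% the other way, so reads from those stretches could be assigned to either gene. Stat5b exceeded Stat5a in all 6 libraries, by 1.19, 1.01 and 1.19 times with anti-OSM and 1.09, 1.46 and 1.36 times with anti-Ly6G.

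Stat6 (gene ID 20852, chr10:127642955-127660987), the factor of interleukin-4 and interleukin-13, was the flattest of the 9. It had 79.2, 75.7 and 77.5 TPM with anti-OSM and 73.3, 84.3 and 79.1 TPM with anti-Ly6G, so that all anti-OSM values fell inside the anti-Ly6G range. Its log2 fold change was 0.00 with a standard error of 0.06 and a 95% interval of -0.14 to 0.13 (edgeR adjusted p = 0.970).

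**Figure D2:**
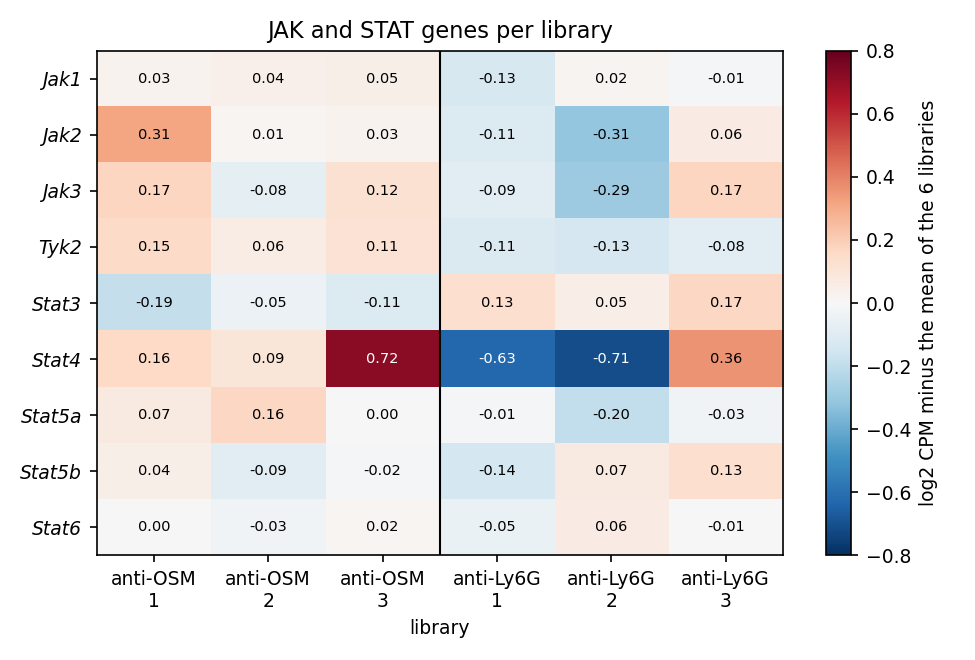
Log2 CPM of each JAK and STAT gene in each library minus the gene's mean over the 6 libraries, anti-OSM left of the line and anti-Ly6G right of it. Stat4 varies most, with anti-Ly6G replicate 3 on the side of the anti-OSM libraries; Stat6 stays nearest to 0; Tyk2 and Stat3 split by group in opposite directions.

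On a per-length scale the 9 genes spanned 85.0-fold in mean TPM over the 6 libraries. Stat3 came first at 135.7 TPM, followed by Jak1 at 113.3, Stat6 at 78.2, Jak2 at 67.4, Stat5b at 28.2, Tyk2 at 26.3, Stat5a at 23.4, Jak3 at 10.8 and Stat4 at 1.6 TPM. Among the tested genes Stat3 stood at the 94.7th percentile of mean TPM, Jak3 at the 49.5th and Stat4 at the 24.6th. Neighbours in this order kept their places in all 6 libraries with no overlap in either group, except for 2 pairs. Stat6 and Jak2 overlapped with anti-OSM, where Jak2 was above Stat6 in replicate 1. Stat5b and Tyk2 overlapped in both groups, Stat5b being above in 1 of 3 anti-OSM and 3 of 3 anti-Ly6G libraries.

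**Figure D3:**
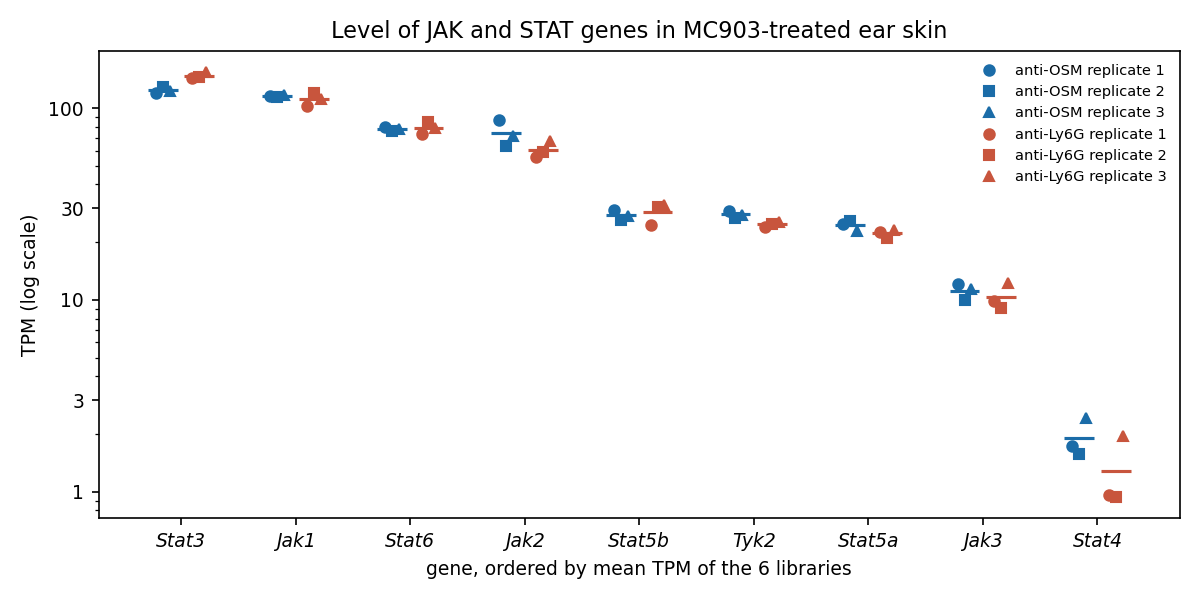
TPM of each gene on a log axis, 1 point per library and a line at the group mean, genes ordered by mean TPM. The span between genes, from 1.6 TPM for Stat4 to 135.7 TPM for Stat3, is far wider than any gap between anti-OSM and anti-Ly6G points of a gene.

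Summed over the 4 kinases, JAK RNA was 244.3, 214.3 and 227.3 TPM with anti-OSM and 191.8, 212.0 and 216.8 TPM with anti-Ly6G, and the groups overlapped. Summed over the 5 factors, STAT RNA was 254.7, 258.1 and 252.8 TPM with anti-OSM and 265.6, 281.9 and 289.7 TPM with anti-Ly6G, without overlap. Stat3 made up 48.5 ± 1.5% of the STAT sum with anti-OSM and 53.0 ± 1.43% with anti-Ly6G (SD, n = 3 each; difference -4.51 percentage points, exact 2-sided permutation p = 0.1, adjusted over the 9 shares 0.3). Stat5a made up 9.60 ± 0.473% with anti-OSM and 7.98 ± 0.527% with anti-Ly6G (SD, n = 3 each; difference 1.62 percentage points, exact 2-sided permutation p = 0.1, adjusted 0.3). These were the only 2 of the 9 shares whose groups did not overlap, and 0.1 is the smallest p that 3 libraries against 3 allow. Of the JAK sum, Jak1 made up 50.7% with anti-OSM and 53.7% with anti-Ly6G, and Jak2 made up 32.2% with anti-OSM and 29.3% with anti-Ly6G. Tyk2 made up 12.2% with anti-OSM and 12.0% with anti-Ly6G, and Jak3 4.89% with anti-OSM and 5.02% with anti-Ly6G. None of these 4 had an exact permutation p below 0.2.

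**Figure D4:**
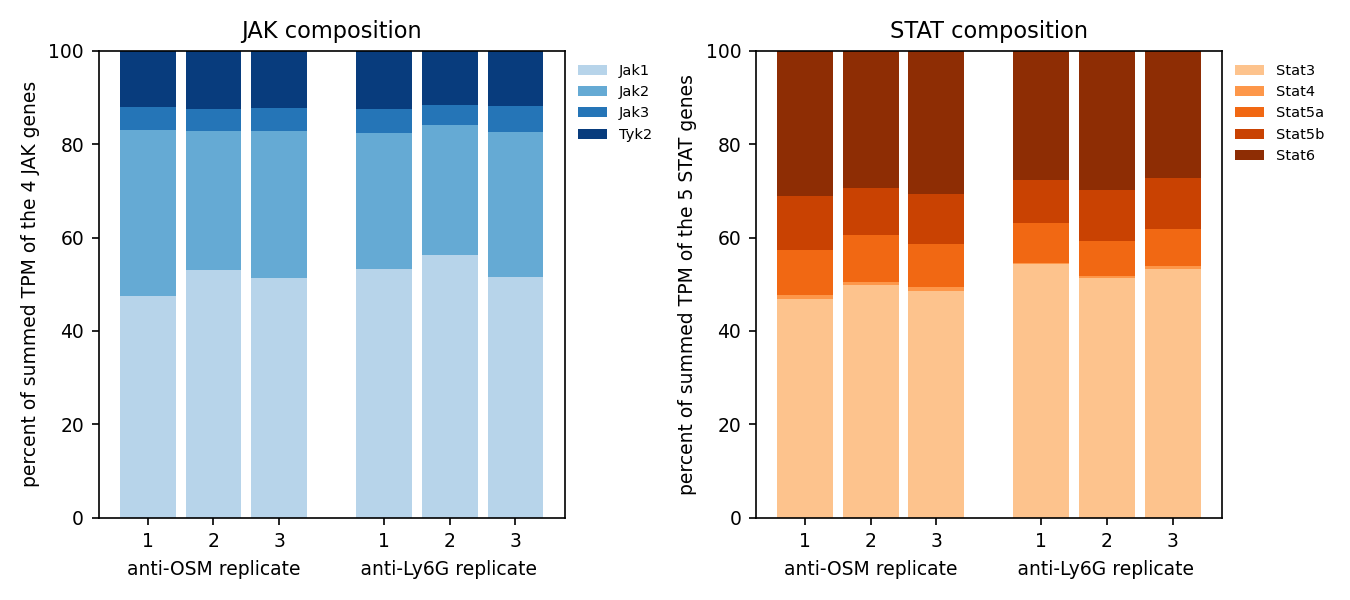
Percent of the summed TPM held by each of the 4 JAK genes (left) and the 5 STAT genes (right), 1 bar per library, anti-OSM left of anti-Ly6G. Stat3 averages 48.5% of STAT RNA with anti-OSM and 53.0% with anti-Ly6G; the JAK bars differ as much within a group as between groups.

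Other genes of the pathway were counted over lists of receptors, ligands, inhibitors and targets, with no test of a list as a whole. Adjusted edgeR counts are read against the 5.81% of all tested genes called higher and 6.27% called lower. Of the 19915 tested genes DESeq2 called 1655 higher and 1746 lower, and limma-voom 1122 and 1152. These are the backgrounds for their counts here and for the markers below. The share of all genes at an unadjusted p under 0.05 was not counted, so unadjusted counts have no background here. The lists share genes, Cish and Socs3 among them. Some receptors are also cell type markers below, such as Il5ra for eosinophils and Csf3r for neutrophils.

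Among the ligands, 3 of 26 tested of 33 listed were higher with anti-OSM and 4 lower. Tslp, the epithelial cytokine of type 2 inflammation, had 181, 114 and 154 TPM with anti-OSM against 895, 471 and 697 TPM with anti-Ly6G. Its level was 2.19 lower with anti-OSM on the log2 scale (standard error 0.28, edgeR adjusted p = 0.00872). Il24 encodes a cytokine of the interleukin-20 group that signals to keratinocytes through STAT3. It had 2.71, 4.24 and 4.20 TPM with anti-OSM against 38.5, 20.6 and 31.6 TPM with anti-Ly6G. On the log2 scale it was 2.99 lower with anti-OSM (edgeR adjusted p = 0.00272). For both genes every anti-OSM library lay far below every anti-Ly6G library. Both of the other lower ligands belong to the gp130 family: Clcf1 was 0.63 lower on the log2 scale (edgeR adjusted p = 0.0109) and Il11 0.94 lower (edgeR adjusted p = 0.0396). The 3 higher ligands were Ebi3, a subunit of interleukin-27 and interleukin-35 (log2 fold change 1.02, edgeR adjusted p = 0.0107), and the lymphocyte growth factors Il15 (0.69, edgeR adjusted p = 0.0279) and Il7 (0.59, edgeR adjusted p = 0.0461). Tslp, Il24, Clcf1 and Ebi3 kept their calls with each library left out; Il15 and Il7 kept theirs in 1 of 6 such fits and Il11 in 0 of 6. The count of higher ligands was then 4 without anti-Ly6G replicate 3 and 1 without any 1 of the other libraries.

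Among the receptor chains, 9 of 42 tested of 43 listed were higher with anti-OSM, 21.4%, and 0 were lower. At an unadjusted p under 0.05 edgeR gave 18 higher and 2 lower, DESeq2 called 15 and 0, and limma-voom 9 and 0. The median log2 fold change of the list was 0.29. Il5ra, the interleukin-5 receptor of eosinophils, had 2.61, 1.27 and 1.74 TPM with anti-OSM against 0.391, 0.335 and 0.577 TPM with anti-Ly6G (log2 fold change 2.07, edgeR adjusted p = 0.00706). Epor, the erythropoietin receptor, was 1.65 higher on the log2 scale (edgeR adjusted p = 0.00470) and Il3ra, the interleukin-3 receptor of basophils and other myeloid cells, 0.60 higher (edgeR adjusted p = 0.0106). These 3 kept their calls with each library left out. The other 6 were higher with anti-OSM by 0.32 to 0.52 on the log2 scale: Il6ra, Il10ra, Il10rb, Ifngr1, Ifngr2 and Lepr. Each kept its call in 1 of 6 such fits. The number of receptors higher was 3, 4 and 3 without anti-OSM replicates 1, 2 and 3, and 4, 4 and 18 without anti-Ly6G replicates 1, 2 and 3.

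The other receptor groups gave no call in edgeR. None of the 11 common gamma chain, interleukin-4, interleukin-13 and TSLP receptor chains passed (median log2 fold change 0.26), with 2 higher and 0 lower at an unadjusted p under 0.05 in edgeR, 2 higher in DESeq2 and 0 in limma-voom; the most abundant, Il13ra1, had 97.9 TPM with anti-OSM and 107 TPM with anti-Ly6G (log2 fold change -0.10, edgeR adjusted p = 0.381). None of the 3 interleukin-12 and interleukin-23 receptor chains passed either (1 higher unadjusted, 1 in DESeq2 and 1 in limma-voom), with Il12rb2 at 11.8 TPM with anti-OSM and 5.37 TPM with anti-Ly6G (log2 fold change 1.21, edgeR adjusted p = 0.0774; 1 of 6 fits with a library left out passed). The chains of the oncostatin M receptor, chosen after their values were seen, were Osmr at a log2 fold change of -0.22 (edgeR adjusted p = 0.133) and Il6st, which encodes gp130, at 0.11 (edgeR adjusted p = 0.386).

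The list of inhibitors held 21 genes, mainly SOCS, PIAS, phosphatases and adaptors, and a gene on it need not inhibit in every case. Of the 21, 3 were higher with anti-OSM and 0 lower. At an unadjusted p under 0.05 edgeR gave 7 higher and 3 lower, DESeq2 called 5 and 1, and limma-voom 3 and 0. Sh2b3, an adaptor that restrains JAK2, had 35.9 TPM with anti-OSM and 26.9 TPM with anti-Ly6G (log2 fold change 0.44, edgeR adjusted p = 0.0101). Cish, a STAT5-induced inhibitor, had 63.9 TPM with anti-OSM and 49.2 TPM with anti-Ly6G (log2 fold change 0.40, edgeR adjusted p = 0.0123). Ptprc, the CD45 phosphatase carried by all leukocytes and also on the leukocyte list, had 62.4 TPM with anti-OSM and 41.6 TPM with anti-Ly6G (log2 fold change 0.63, edgeR adjusted p = 0.0198). With a library left out Sh2b3 kept its call in 6 of 6 fits, Cish in 4 and Ptprc in 3; the count of higher inhibitors was 1 without anti-OSM replicate 1 or 3 and 5 without anti-Ly6G replicate 3. Socs3, the inhibitor of gp130 signalling, chosen after its values were seen, had 67.5 TPM with anti-OSM and 78.7 TPM with anti-Ly6G and did not pass (log2 fold change -0.20, edgeR adjusted p = 0.545).

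The lists of target genes were drawn from general knowledge of each factor, hold genes that other signals also control, and were written with earlier results known. Of 20 STAT3-associated genes, 0 were higher with anti-OSM and 3 lower, with a median log2 fold change of -0.16; unadjusted, edgeR gave 0 higher and 6 lower, DESeq2 called 0 and 5, and limma-voom 0 and 2. Hif1a, the hypoxia-inducible factor, had 81.4, 83.2 and 86.0 TPM with anti-OSM against 160.0, 129.7 and 157.7 TPM with anti-Ly6G. It was 0.79 lower with anti-OSM on the log2 scale (edgeR adjusted p = 0.00390), and the call held with each library left out. The growth regulator Myc was 0.39 lower (edgeR adjusted p = 0.0346) and the transcription factor Cebpb 0.31 lower (edgeR adjusted p = 0.0490). These calls held in 1 and 0 of 6 such fits. The lower genes numbered 2 once anti-Ly6G replicate 3 was dropped and 1 for each other library dropped.

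Of 18 STAT6-associated genes, 8 were higher with anti-OSM, 44.4%, and 1 lower, with a median log2 fold change of 0.64. Mgl2, a lectin of macrophages and dendritic cells, had 310, 391 and 348 TPM with anti-OSM against 180, 191 and 228 TPM with anti-Ly6G (log2 fold change 0.83, edgeR adjusted p = 0.00603). The chemokine Ccl22 had 42.8 TPM with anti-OSM and 23.2 TPM with anti-Ly6G (log2 fold change 0.91, edgeR adjusted p = 0.0101). Tgm2, a transglutaminase, was the 1 lower gene, at 36.8 TPM with anti-OSM and 56.9 TPM with anti-Ly6G (log2 fold change -0.60, edgeR adjusted p = 0.00724). The other 6 called were the chemokines Ccl11 and Ccl24, the lectin Clec10a, the lipoxygenase Alox15, the checkpoint ligand Pdcd1lg2 and Cish. The count of higher genes was 4, 6 and 4 without anti-OSM replicates 1, 2 and 3, and 4, 5 and 10 without anti-Ly6G replicates 1, 2 and 3.

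Of 11 STAT5-associated genes 2 were higher, Cish and the growth factor Igf1 (log2 fold change 0.91, edgeR adjusted p = 0.00247). Of 8 STAT4-associated genes 1 was higher, the transcription factor Hlx (log2 fold change 0.58, edgeR adjusted p = 0.0482), a call kept in 1 of 6 fits with a library left out. None was lower on either list; unadjusted, edgeR gave 1 lower on each, DESeq2 called 1 lower for STAT5 and 0 for STAT4, and limma-voom 0 on each. Without anti-Ly6G replicate 3 the counts of higher genes were 4 for STAT5 and 2 for STAT4, without anti-OSM replicate 1 or 3 they were 1 and 0, and without any 1 of the other 3 libraries 2 and 0.

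**Figure D5:**
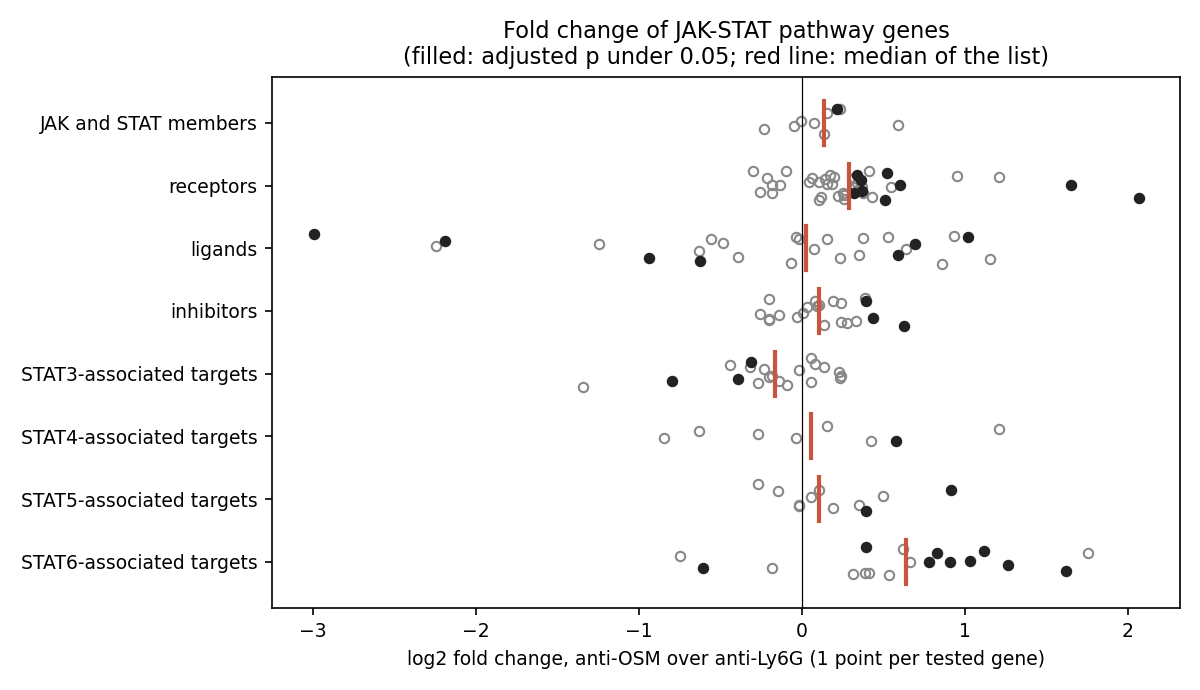
Log2 fold change of anti-OSM over anti-Ly6G for each tested gene of the JAK-STAT lists, filled where the adjusted p is under 0.05, with the list median as a red line. The 9 JAK and STAT genes lie between -0.23 and 0.59, while ligands reach -2.99 (Il24) and receptors 2.07 (Il5ra); 8 of 18 STAT6-associated genes are filled to the right of 0.

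Markers of cell types also differed between the antibodies. In bulk tissue, fewer cells of a type and less RNA per cell cannot be told apart. Of 8 pan-leukocyte markers 6 were higher with anti-OSM (8 in DESeq2, 6 in limma-voom), and their summed level was 916 to 1011 TPM in the anti-OSM libraries and 526 to 771 TPM in the anti-Ly6G libraries. Macrophage and monocyte markers were higher for 4 of 11 (10 in DESeq2, 7 in limma-voom), with sums of 3618 to 4146 TPM in the anti-OSM libraries and 1969 to 3283 TPM in the anti-Ly6G libraries. Dendritic and Langerhans cell markers were higher for 7 of 11 (7 in DESeq2, 7 in limma-voom), with sums of 2275 to 2804 TPM in the anti-OSM libraries and 1586 to 2113 TPM in the anti-Ly6G libraries.

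Mast cell markers were higher for 5 of 8 (6 in DESeq2, 6 in limma-voom), with sums of 991 to 1131 TPM in the anti-OSM libraries and 572 to 782 TPM in the anti-Ly6G libraries. Eosinophil markers were higher for 3 of 7 tested of 8 listed (5 in DESeq2, 3 in limma-voom), with sums of 235 to 273 TPM in the anti-OSM libraries and 86.1 to 144 TPM in the anti-Ly6G libraries. Among the 3 was Il5ra, already counted with the receptors. T cell markers were higher for 2 of 14 (5 in DESeq2, 2 in limma-voom), with sums of 143.0 to 143.7 TPM in anti-OSM libraries and 88.8 to 126 TPM in anti-Ly6G libraries. B cell markers were higher for 2 of 4 tested of 6 listed, NK and innate lymphoid markers for 1 of 8, and fibroblast markers for 4 of 7. In each of these 9 lists every anti-OSM sum lay above every anti-Ly6G sum, and anti-Ly6G replicate 3 had the highest sum of its group.

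Markers of neutrophils, the cells that carry Ly6G, gave 1 lower with anti-OSM and 0 higher of 8 tested of 12 listed (unadjusted, edgeR gave 2 higher and 1 lower; DESeq2 called 1 and 1, and limma-voom 0 and 1). Their sums overlapped, at 333 to 490 TPM in the anti-OSM libraries and 284 to 480 TPM in the anti-Ly6G libraries. The largest parts were S100a9, with 167 TPM with anti-OSM and 166 TPM with anti-Ly6G, and S100a8, with 143 and 156 TPM. Which cells these transcripts came from was not tested, so the overlap of the sums does not show alike neutrophil content. Ly6g, Ngp, Camp and Elane had at most 16 counts in any library and were left out of the test. Single markers went both ways. Retnlg (63.7 against 15.2 TPM, edgeR adjusted p = 0.112) and Csf3r (29.0 against 14.9 TPM, edgeR adjusted p = 0.127) were higher with anti-OSM without passing. The lower gene was Trem1 (1.08 against 2.22 TPM, edgeR adjusted p = 0.0465). Keratinocyte markers were lower with anti-OSM for 2 of 10 (4 in DESeq2, 3 in limma-voom), with sums of 21725 to 25525 TPM in the anti-OSM libraries and 26385 to 33414 TPM in the anti-Ly6G libraries, replicate 3 having the lowest of its group. Skeletal muscle markers were lower for 7 of 8 and cartilage markers for 6 of 7 tested of 8 listed. Of 7 endothelial markers edgeR called 0, with 2 higher unadjusted, 1 in DESeq2 and 0 in limma-voom. No marker on these lists was at 0 in all 6 libraries. The part of these differences in the JAK and STAT genes, Tyk2 and Stat3 included, and in the ligands, receptors, inhibitors and STAT-associated genes was not tested.

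Each JAK or STAT gene was set beside all others by its profile over the 6 libraries, using the root mean square difference of centred log2 CPM among 11173 genes with a mean of at least 10 CPM. Jak2 and Jak3 were each other's nearest member (0.0917), as were Jak1 and Stat6 (0.0490) and Tyk2 and Stat5a (0.0887), while Stat4 was far from every other member (0.375 to Jak3, the nearest). The nearest genes of all were Pik3r5 and Fgr for Jak2, Cyth4 and Efemp2 for Jak3, Tmed3 and Hbp1 for Tyk2, and Nutf2 and Rab10 for Stat3. Stat4 lay nearest to Herc6 and Clec4n, Stat5a to Mbnl1 and Haus2, and Stat5b to Uhmk1 and Casp9. For the flat profiles of Jak1 (Zfp451 and AW554918) and Stat6 (Slain2 and Ahcyl2) likeness means only that the neighbour is flat too. Every member lay closer to its nearest other gene than to any member, as Jak2 to Pik3r5 (0.0226), Jak3 to Cyth4 (0.0331) and Tyk2 to Tmed3 (0.0156). The member pairs are therefore not close by this measure, and with 11173 candidates over 6 libraries a near profile shows no link between genes.

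Promoter windows of the 9 genes were read from RefSeq (GRCm38.p6), from 250 bases before to 50 after each listed start, 12 windows. None covered position 100859004, where Stat5b begins on the minus strand, or 100859351, where Stat5a begins, so the stretch between was not read. The windows were searched for the palindromes TTCNNNGAA and TTCNNNNGAA, which STAT dimers are known to bind. Both read the same on either strand, and neither contains the other. Neither was found in any of the 12 windows, while 14.6% of all 32851 promoter windows held at least 1 of them; this says only that these letters are absent there. The windows differ in CpG content, which ran from 2 in the first Stat4 window to 50 in a Stat5b window, with a median of 7 over all promoters. The 100 bases before the start are shown for the member that passed the test, for the one with the lowest fold change and for the one with the fewest CpG, with CG in capitals, 5′ to 3′ on the gene's strand.
Tyk2, chr9:21131276-21131375, minus strand: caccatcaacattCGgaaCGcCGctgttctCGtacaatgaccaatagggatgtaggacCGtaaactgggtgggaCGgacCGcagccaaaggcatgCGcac
Stat3, chr11:100939541-100939640, minus strand: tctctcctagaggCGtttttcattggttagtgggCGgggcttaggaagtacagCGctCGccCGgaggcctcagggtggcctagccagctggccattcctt
Stat4, chr1:51987048-51987147, plus strand: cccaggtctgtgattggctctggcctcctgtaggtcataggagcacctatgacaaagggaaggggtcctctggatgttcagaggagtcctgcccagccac
The Tyk2 stretch holds 8 CG, the Stat3 stretch 5 and the Stat4 stretch 0.

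Among the other pathway genes, 106 of the 144 listed had a promoter in the table, and 38 of their 137 windows, 27.7%, held 1 of the motifs. Of the 106 genes 33 had a motif, 31.1%. Of the 19 of these genes that passed the edgeR test 6 had a motif, near that share, as did 27 of the remaining genes. The sites of the 6, and that of Socs3, a known STAT3 target that did not pass, are shown in 30 bases around the motif, which is in capitals, on the gene's strand of GRCm38.p6.
Cish, chr9:107296649-107296678: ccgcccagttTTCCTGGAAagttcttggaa
Cish, chr9:107296660-107296689: tcctggaaagTTCTTGGAAatctgtcaaag
Ifngr2, chr16:91546958-91546987: ggggccgcggTTCCCGGGAAcaccggggaa
Pdcd1lg2, chr19:29410827-29410856: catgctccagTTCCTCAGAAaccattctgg
Il5ra, chr6:106748991-106749020: cagaaaatgtTTCAATAGAAaaaagaggaa
Il11, chr7:4782843-4782872: cagcaaggggTTCACAAGAAggggtgacct
Hif1a, chr12:73907622-73907651: agacgcagctTTCCATTGAAggtgcagaga
Socs3, chr11:117969501-117969530: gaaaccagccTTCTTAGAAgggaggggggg
Cish has 2 sites, beginning at bases 1 and 12 of the transcript, and both have a spacing of 3, as does that of Socs3; the sites of the other 5 have a spacing of 4. Of these genes Cish, Ifngr2, Pdcd1lg2 and Il5ra were higher with anti-OSM and Il11 and Hif1a lower, so genes with a motif were called in both directions. A motif match is a description of the sequence and does not show binding.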

How the data were processed

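PolyA RNA of mouse ear skin was sequenced. Per the file headers, each library has 3 columns in the deposited table, holding read counts, FPKM and TPM. The read counts deposited by the authors are whole numbers; the TPM values deposited by the authors sum to 1000000 per library and were used for levels; the deposited FPKM values were used only to derive the transcript length behind each value. The submitters' processing notes list HISAT2 2.1.0, StringTie 2.1.3b, SAMtools 1.9, Trimmomatic 0.38, bcl2fastq 2.20.0 and edgeR 3.40.2, without roles, and the build mm10 (GRCm38). The counting step and its use of strand are not given in the sources used here. Of 45777 genes, 16043 had no count.

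Counts were tested with edgeR 4.0.16 in R 4.3.3 (filterByExpr, TMM, robust quasi-likelihood fit, 2-sided F-test, Benjamini-Hochberg over all 19915 tested genes, threshold 0.05), with the 6 antibody libraries and no covariate. A positive log2 fold change means higher with anti-OSM. CPM use TMM-scaled library sizes. Shares were compared by an exact permutation test (SciPy 1.17.1). Within each group the libraries differed by more than counting noise (chi-square at least 26.2 per gene), so none was treated as 1 library deposited more than once; this does not show that they came from different mice. Library totals of 52163179 to 64122588 counts set the precision; the limits for 0 counts cover counting error only. Alternatives were other scalings and filters, DESeq2 1.42.0, limma 3.58.1 on counts (voom) and on log2(TPM + 1) and log2(TPM + 0.1), a replicate block, a non-robust fit and each library left out. The code was tested on simulated data.

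The genes, lists and rules were chosen with earlier results of these data known. Named were the 9 genes; the antibody targets; per list up to 3 called genes with the smallest p, or the most abundant if none was called; and the nearest profiles. A further list under this rule is not reported here. Other names were chosen after their values were seen. Positions and promoters are from RefSeq and overlaps and transcript words from GENCODE M21.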

Additional observations from a re-analysis of the deposited data

How the results depend on the processing

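Among the 9 genes, the 1 called higher became 0 with RLE scaling, upper quartile scaling, no filter, limma-voom, the replicate block and limma on log2(TPM + 1) or log2(TPM + 0.1). With a library left out it was 0 to 1, but Tyk2 was called in 0 of 6 such fits, and the 1, without anti-Ly6G replicate 3, was Stat4. The 0 called lower became 1, Stat3, under DESeq2 and under limma on either TPM scale. Tyk2 kept its call under total counts, a filter of 1 CPM in 3 libraries, DESeq2 and the non-robust fit. Both near-flat genes changed sign: Stat5b, at -0.05, ran from -0.13 to 0.0089 with a library left out, positive without anti-Ly6G replicate 3, and Stat6, at 0.00, was 0.0075 with total counts and ran from -0.035 to 0.027 with a library left out, positive with replicate 2 of either group dropped. The differences in the 9 shares moved by less than 1 SD when counts divided by the mean transcript length replaced TPM. Leaving out 1 of 3 libraries cannot move a group mean by 1 SD of that group. Those runs therefore do not test the shares.

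Receptors higher (9) were 15 under DESeq2 and 15 under the replicate block, and 3 to 18 with a library left out. DESeq2 also called more genes in the whole table, 1655 higher and 1746 lower. With a library left out, ligands higher (3) were 1 to 4, inhibitors higher (3) 1 to 5 and lower (0) 0 to 1, STAT3-associated genes lower (3) 1 to 2, STAT4-associated genes higher (1) 0 to 2, STAT5-associated genes higher (2) 1 to 4, STAT6-associated genes higher (8) 4 to 10, and all genes 240 to 1545 higher and 420 to 1447 lower. DESeq2 gave 5 inhibitors higher and 1 lower, 5 STAT3-associated genes lower, 2 STAT4-associated genes higher, 1 STAT5-associated gene lower and 2 STAT6-associated genes lower. STAT4-associated genes higher were 0 with total counts and 0 with no filter, and 1 STAT5-associated gene was lower with the filter of 1 CPM. The cause of these shifts was not tested. A fit with a library left out also has fewer samples, and the part of this was not tested either.

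The replicate block gave 2 STAT4-associated genes higher, 2 STAT6-associated genes lower, and 1325 genes higher and 1275 lower overall; in it Tyk2 had an adjusted p of 0.0669. Deviations of same-numbered libraries from their group means correlated at 0.0116, 0.0375 and 0.124. Differently numbered libraries gave -0.117 to 0.0814. Whether same-numbered libraries shared anything beyond the number cannot be told from these values. Depth limits Stat4 most, at 1.31 to 3.52 CPM.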

Other observations

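The deposited counts and FPKM imply a transcript length for each gene and library. For Jak2 this length ran from 5131 to 6010 bases, a 1.17-fold range, and took 5405, 5777 and 5131 bases with anti-OSM and 6010, 5250 and 5807 bases with anti-Ly6G. For each of the other 8 genes the range was at most 1.05-fold. Jak2 ranked the anti-Ly6G libraries differently by scale: replicate 2 had 58.9 TPM and replicate 1 had 55.9 TPM, while in CPM replicate 2 had 127 and replicate 1 had 146. What lies behind the differing lengths was not tested.

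Genes that overlap a member in GENCODE M21 were also read. Nab2, which overlaps the end of Stat6 by 40 bases on the other strand, had 1332 to 1524 counts in the anti-OSM libraries and 1994 to 2300 in the anti-Ly6G libraries. Insl3, which overlaps Jak3 over 1362 bases on the same strand, had 7 to 9 counts in the anti-OSM libraries and 6 to 7 in the anti-Ly6G libraries. Stat3 and Stat5a overlap by 72 bases at their ends in that annotation.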
